A study of Mus musculus with 8 samples.

Results

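Wnt4 loss at embryonic day 12.5 was examined in the 4 arrays of that stage, out of 8 in the series, which were chosen by their titles. Each array held total RNA from embryonic gonad on the Affymetrix MG_U74Av2 chip. The 4 were a wild-type (WT) ovary, a Wnt4 knock-out (KO) ovary, a WT testis and a Wnt4 KO testis, 1 array each. Embryos had been staged by morphology and genotyped by PCR. The other 4 arrays are the same groups at E14.5. The strain, the allele, the number of embryos behind an array and whether the mesonephros was left on the gonad are not known here. XX below stands for the arrays labelled female and XY for those labelled male. KO minus WT was taken within the XX pair and within the XY pair, and the pairs served as the only repeats, so the p-values measure the spread between the pairs and not between embryos.

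Wnt4 is a secreted signal made by the somatic cells of the fetal ovary. Together with R-spondin 1 it acts on pregranulosa cells, the supporting cells of the ovary, through Frizzled receptors and beta-catenin with its TCF/LEF partners. In its absence the XX gonad is known to lose part of the ovarian programme and to hold steroid-making cells, and the adrenal and kidney primordia, which lie beside the gonad, are known to need Wnt4 as well. Follistatin and the transcription factors Irx3 and Msx1 are among the transcripts that mark pregranulosa cells.

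Signals are median-centred log2 values and differences are log2, so that a difference of 1 is a factor of 2. Values under a floor of 6.99 were set to it before differences were taken, and a difference with 1 array under the floor is a lower bound, written "at least". Between 59.8% and 60.2% of the probe sets on the E12.5 arrays lay above the floor. Of 12488 probe sets, the 7595 that lay above it on at least 2 of the 4 arrays were fitted. The median difference over all fitted probe sets was -0.03 in the XX pair and 0.03 in the XY pair, and the 5th and 95th percentiles were -0.25 and 0.19 in the XX pair and -0.18 and 0.23 in the XY pair. With 1 array a group, their number limits the precision.

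The labels were checked first. Xist stood at 7.71 and 7.69 on the XX arrays and at 4.44 and 4.07 on the XY arrays. The Sertoli cell transcript Cst9 stood at 6.89 and 7.02 on the XX arrays and at 9.31 on both XY arrays. At E14.5 the array labelled WT female held signal of the Y-linked gene Eif2s3y (7.63, against 4.86 in the KO female). That probe set did not follow the labels of this stage, with 7.54 in the WT male and 6.91, under the floor, in the KO male. The WT female array held Xist at 7.10, against 4.33 and 4.79 in the males of that stage. Its Uty, Kdm5d and Sry signals were under the floor, as Uty and Kdm5d were in those males too. The brighter Sry probe set stood at 6.82 in the WT female, 6.67 in the KO female, and 8.03 and 8.02 in the males. XX differences at that stage rest on this array. The spike-in controls, which are added in fixed amounts, differed within the XY pair (mean of 9 probe sets 9.48 in WT and 9.78 in KO) and hardly within the XX pair (8.85 and 8.83). The 3' minus 5' gap of actin, a sign of RNA and labelling quality, was 0.96 in WT and 1.10 in KO of the XY pair, and 0.48 and 0.49 in the XX pair. Their part in the results was not tested.

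Wnt4 itself stood at 10.19 in WT XX, 8.59 in KO XX, 9.26 in WT XY and 8.34 in KO XY. Both KO arrays lay below both WT arrays, and the KO arrays still held signal well above the floor. The fall was 3.02-fold in the XX pair and 1.89-fold in the XY pair (mean difference -1.26 ± 0.11, SE of the 4-array fit; limma adjusted p = 0.0087 with all 8 arrays). No source used here places this probe set inside or outside the deletion, so its level does not check the label.

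The promoters of 4 genes from the group that moved the same way in both pairs are shown, because a searched motif was found in each. The other promoter with a motif was that of Adh1, with a single AGATAA. Each line runs from 250 bases before to 50 bases after the start site, as RefSeq gives it on GRCm38.p6 (the first start listed where a gene has several), with the motif in capitals. Chgb (chr2:132781392-132781691, plus strand) and Foxd1 (chr13:98353995-98354294, plus strand) hold a cyclic AMP response element core, 72 and 66 bases before the start. Cxcl12 (chr6:117168285-117168584, plus strand) and Igfbp2 (chr1:72824230-72824529, plus strand) hold a TCF/LEF core, read on the minus strand.
Chgb: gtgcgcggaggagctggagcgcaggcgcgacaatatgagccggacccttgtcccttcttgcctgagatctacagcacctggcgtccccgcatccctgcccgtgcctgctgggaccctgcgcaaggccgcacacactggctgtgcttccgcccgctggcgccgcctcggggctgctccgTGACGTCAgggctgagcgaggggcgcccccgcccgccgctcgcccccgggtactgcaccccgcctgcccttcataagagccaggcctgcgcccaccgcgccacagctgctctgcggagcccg
Foxd1: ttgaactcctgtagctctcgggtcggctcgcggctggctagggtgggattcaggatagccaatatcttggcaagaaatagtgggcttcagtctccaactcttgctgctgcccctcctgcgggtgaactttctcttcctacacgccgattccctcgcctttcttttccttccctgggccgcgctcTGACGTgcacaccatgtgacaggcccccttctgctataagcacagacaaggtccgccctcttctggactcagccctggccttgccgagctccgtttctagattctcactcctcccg
Cxcl12: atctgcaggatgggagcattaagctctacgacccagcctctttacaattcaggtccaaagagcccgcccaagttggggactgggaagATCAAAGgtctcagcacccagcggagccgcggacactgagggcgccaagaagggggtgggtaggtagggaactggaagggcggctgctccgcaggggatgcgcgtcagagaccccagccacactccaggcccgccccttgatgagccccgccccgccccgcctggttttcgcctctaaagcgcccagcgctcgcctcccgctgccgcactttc
Igfbp2: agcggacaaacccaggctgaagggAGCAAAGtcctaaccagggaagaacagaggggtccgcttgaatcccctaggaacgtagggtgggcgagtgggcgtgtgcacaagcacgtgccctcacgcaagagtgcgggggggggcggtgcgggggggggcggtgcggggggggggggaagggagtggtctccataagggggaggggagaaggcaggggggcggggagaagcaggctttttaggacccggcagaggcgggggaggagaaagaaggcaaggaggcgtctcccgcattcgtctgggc
Both strands were searched. The TCF/LEF motif was spelled CTTTGNT. The steroidogenic factor 1 motif was spelled AAGGTCA. The cyclic AMP motif was spelled TGACGT. The forkhead motif was spelled GTAAACA. The GATA motif was spelled AGATAA. No matches of different motifs overlapped in these promoters. Of 27025 promoters of this length, 1 per gene, 18.6% held the TCF/LEF core, 4.66% the steroidogenic factor 1 motif, 7.64% the cyclic AMP motif, 3.55% the forkhead motif and 11.4% the GATA motif. Promoters were found for 7 of the 9 genes that were higher in both KO gonads and for 6 of the 8 that were lower. The TCF/LEF core was in 1 of those 7 and in 1 of those 6, and the cyclic AMP motif in 2 of the 7 and 0 of the 6. The 9 promoters found for the 13 genes that moved in the XX pair only held none of the 5 motifs. A match describes these letters and says nothing about binding.

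Both gonads together were compared to ask what Wnt4 loss changed irrespective of gonad type. In the fit of the 4 arrays with gonad type as a term, 52 probe sets were higher in KO (0.685%) and 77 lower (1.01%) (limma, Benjamini-Hochberg adjusted p under 0.05, 129 of 7595, 1.7%). Of the 129, 124 had the same sign in both pairs. With 1 residual degree of freedom limma's prior took over entirely, so that each probe set was given the mean variance of probe sets at its level, and a probe set whose pairs disagreed could still pass. On simulated data this fit made more false calls than its threshold allows, and the 8-array fit did not. The fit of all 8 arrays with genotype within stage, which uses the variance of each probe set in part, called 24 higher (0.316%) and 18 lower (0.237%), together 42 probe sets (0.553%), all of them among the 129. Where the E14.5 arrays all lay under the floor, as for Chgb, Foxd1 and Mc2r and nearly for Nefm, that stage added no spread to this fit. The 8-array p of such a probe set can therefore be too small. When each probe set had its own variance only, 0 passed, with 250 at an unadjusted p under 0.05. Below, "rose" and "fell" refer to the 4-array fit, errors are its SEs, and the adjusted p of the 8-array fit, or a list's count in it, is given beside them, with the E12.5 arrays in both fits.

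A fold of at least 1.5 the same way in both pairs was found for 20 probe sets of 17 genes (0.263% of those fitted), 11 higher and 9 lower in KO. With the filter and moderation of the main fit, a probe set of this size in both pairs passes the 4-array fit by construction. Its result for the 20 therefore adds nothing. The 8-array fit, which uses the same E12.5 values, did not call Gas5 and Thy1. That fit also counts a disagreement of the pairs at E14.5 as error. The E14.5 differences in the XX and XY pairs were 0.14 and -1.73 for Gas5 and -0.60 and 0.77 for Thy1. With the filter on low values taken over all 8 arrays, an alternative chosen after seeing the data, 16 of the 20 lost their call in the 8-array fit, and Chgb, Star and 1 probe set each for Cxcl12 and Igfbp3 kept it. In the 4-array fit all 20 lost their call without moderation, and all 20 lost it without a filter on low values. In the XX pair 64 probe sets reached 1.5-fold (0.843%), 23 higher (0.303%) and 41 lower (0.54%), and in the XY pair 38 (0.5%), 19 each way (0.25% each). None moved 1.5-fold in opposite ways. The last member inside the limit was Npnt, with a smaller difference of 0.61, and the next outside was Hpgd with 0.58. Across all fitted probe sets the differences of the pairs, which share no array, correlated at Pearson r = 0.22, a value across genes that are not independent and that carries no test.

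**Figure D1:**
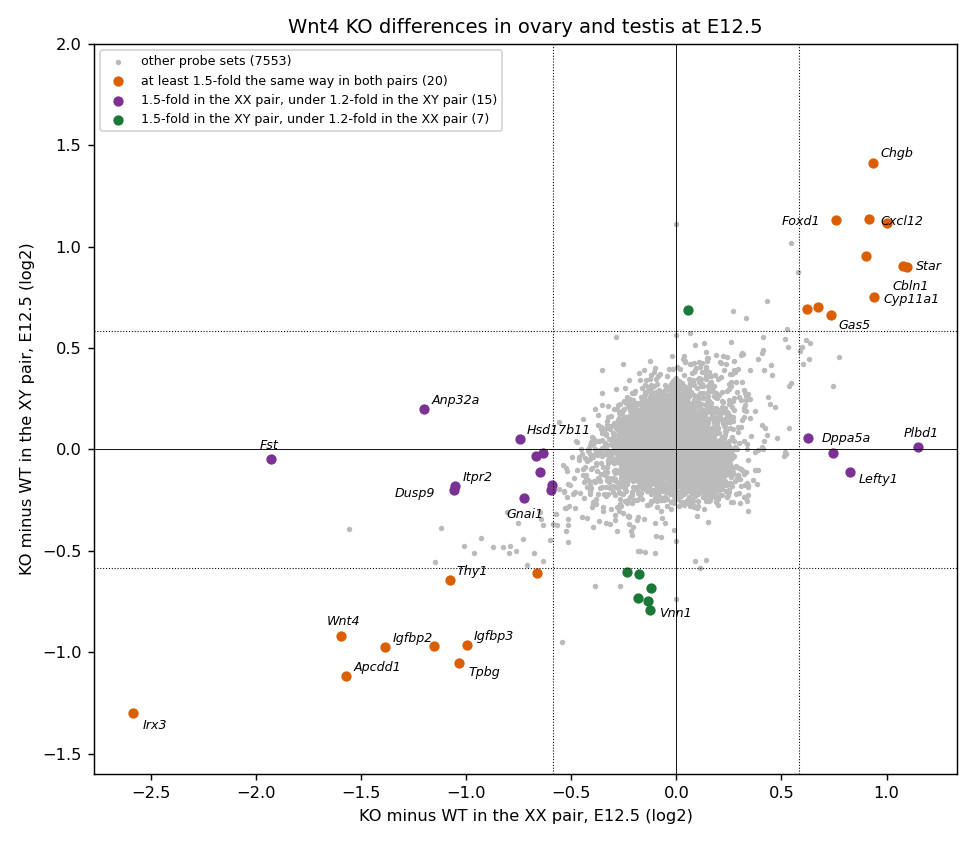
KO minus WT in the XX pair (horizontal axis, log2) against the XY pair (vertical axis, log2) for 7595 probe sets at E12.5, each a point; dotted lines mark 1.5-fold. The 20 probe sets that moved at least 1.5-fold the same way (orange) lie in the lower left and upper right corners, the 15 of the XX pair only (purple) along the horizontal axis and the 7 of the XY pair only (green) along the vertical axis.

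Among the genes that fell in both gonads, Irx3, a homeobox transcription factor of the ovary's supporting cells, had the largest fall. It stood at 9.61 in WT XX, 7.03 in KO XX, 8.29 in WT XY and 6.93 in KO XY, the last under the floor. Both KO arrays were thus close to the floor, from different WT levels. Irx3 fell 6.0-fold in the XX pair and at least 2.46-fold in the XY pair (mean -1.94 ± 0.10; limma adjusted p = 0.0168 with 8 arrays). Irx3 was not called by the 4-array fit with robust moderation. Apcdd1, a Wnt inhibitor at the cell surface that is itself a known Wnt target, stood at 9.31, 7.74, 8.92 and 7.81 in the same order of arrays. Its KO levels were nearly alike, and both lay more than 1 below both WT levels (mean -1.34 ± 0.11; limma adjusted p = 0.0288 with 8 arrays).

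Igfbp2 and Igfbp3 fell too, while a further binding protein gene, Igfbp4, chosen after its values were seen, had differences of -0.34 and 0.08 on its brighter probe set and did not pass (limma adjusted p = 1 in both fits). Igfbp2, which encodes a binding protein of these factors, stood at 11.41 in WT XX, 10.03 in KO XX, 10.89 in WT XY and 9.91 in KO XY (mean -1.18 ± 0.11; limma adjusted p = 0.0225 with 8 arrays). Igfbp3, which encodes the main carrier of these factors in blood, was measured by 2 probe sets. The brighter stood at 12.02, 11.02, 11.85 and 10.88 in that order, and the other at 11.51, 10.35, 10.94 and 9.97. The probe sets gave a fall of 2.0-fold and 2.23-fold in the XX pair and of 1.95-fold and 1.96-fold in the XY pair, so that the fall was of like size in ovary and testis (limma adjusted p = 0.0164 and 6.5e-04 with 8 arrays).

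Surface and matrix proteins made up the rest of the genes that fell at least 1.5-fold in both gonads. Tpbg, a membrane glycoprotein that inhibits Wnt signalling, stood at 9.86 in WT XX, 8.82 in KO XX, 9.57 in WT XY and 8.52 in KO XY, a fall of 2.05-fold and 2.08-fold (limma adjusted p = 0.0087 with 8 arrays). Thy1, a membrane glycoprotein of neurons, lymphocytes and fibroblasts, stood at 9.02, 7.95, 8.86 and 8.21 (mean -0.86 ± 0.11; limma adjusted p = 0.205 with 8 arrays). Npnt, whose product nephronectin is a matrix ligand of an integrin, stood at 8.84, 8.17, 8.58 and 7.97 (mean -0.64 ± 0.11; limma adjusted p = 0.0342 with 8 arrays). For each of these 3 genes both KO arrays lay below both WT arrays.

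Among the genes that rose in both gonads, the chemokine gene Cxcl12, whose product guides germ cells to the gonad and blood vessels in their growth, was measured by 3 probe sets. The brightest stood at 9.65 in WT XX, 10.57 in KO XX, 10.13 in WT XY and 11.27 in KO XY. The other probe sets stood at 8.42, 9.42, 8.31 and 9.43, and at 8.32, 9.22, 8.27 and 9.23. All 3 rose in both pairs, by 1.87-fold to 2.0-fold in the XX pair and 1.94-fold to 2.2-fold in the XY pair (limma adjusted p from 6.5e-04 to 0.0258 with 8 arrays). The KO arrays lay above both WT arrays on every probe set.

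Steroid-making genes were also among those that rose. Star, which moves cholesterol into mitochondria, stood at 6.68 in WT XX (under the floor), 8.08 in KO XX, 7.04 in WT XY and 7.94 in KO XY. Star thus lay at the edge of detection in both WT gonads and clearly above it in both KO gonads, at least 2.14-fold higher in the XX pair and 1.87-fold higher in the XY pair (limma adjusted p = 5.4e-04 with 8 arrays). Cyp11a1, which cuts the side chain of cholesterol, stood at 6.79 (under the floor), 7.93, 7.25 and 8.00 in that order, at least 1.92-fold and 1.68-fold higher (limma adjusted p = 0.0311 with 8 arrays). Mc2r, the receptor of the pituitary hormone ACTH on adrenal cortex cells, stood at 7.32, 7.63, 6.99 and 7.47 (mean 0.39 ± 0.09; limma adjusted p = 0.0311 with 8 arrays). Its rise was smaller than that of Star and Cyp11a1 and its KO XX level lay above its KO XY level.

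Other members of the steroid list did not pass. Of its 10 fitted genes 2 rose and 0 fell (2 and 0 in the 8-array fit), against 1.71% of all genes called, with a median difference of 0.06 in the XX pair and 0.17 in the XY pair, against -0.04 and 0.03 over all 5834 genes. Cyp17a1, which is needed for androgens, had differences of 0.12 and -0.07. Nr5a1, the transcription factor steroidogenic factor 1, had 0.04 and 0.08. Of the adrenal cortex list, 1 of 7 fitted genes rose (Mc2r) and 0 fell. Cyp21a1, an enzyme of the adrenal cortex, had differences of 0.15 and 0.20 and did not pass (adjusted p = 1 with limma on 4 arrays). The summed signal of the adrenal list, as log2, went from 11.30 to 11.32 in the XX pair and from 11.46 to 11.60 in the XY pair. Its members Mrap, Ccn3 and Melk were under the floor on all 4 arrays. In whole gonads, more cells of a type and more RNA per cell cannot be told apart.

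Genes of nerve and chromaffin cells, the catecholamine-making cells of the adrenal medulla, were higher as well. Chgb, a protein of secretory granules, stood at 6.54 in WT XX, 7.92 in KO XX, 6.19 in WT XY and 8.40 in KO XY. Both WT arrays lay under the floor and both KO arrays above it, so Chgb was at least 1.91-fold higher in the XX pair and at least 2.67-fold higher in the XY pair (limma adjusted p = 2.5e-04 with 8 arrays). Chgb met the filter on low values only through the KO arrays, on which its test depends. Its E14.5 signals were all under the floor and added no spread to the 8-array fit, so its p there can be too small. Its probe set carries the chip's suffix for sequences common to several transcripts, and another probe set for Chgb was under the floor on all 4 arrays. Th, the rate-limiting enzyme of catecholamine synthesis, stood at 7.13, 7.74, 7.37 and 7.92 (mean 0.58 ± 0.10; limma adjusted p = 0.0066 with 8 arrays). Nefm, a neurofilament protein, stood at 7.38, 8.01, 7.42 and 7.95 (mean 0.58 ± 0.10; limma adjusted p = 0.0036 with 8 arrays). For Th and Nefm both KO arrays lay above both WT arrays.

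Of the 14 fitted genes on the chromaffin and neural crest list, 3 rose and 0 fell in both fits. In both pairs 9 were positive (64.3%, against 19.4% of all genes). This share was not particular to the list. It ran from 0% to 71.4% over the 21 lists, and the macrophage list had the same 64.3% with 0 genes passing. The median difference was 0.23 in the XX pair and 0.19 in the XY pair, against -0.04 and 0.03 over all genes, of which 1.71% passed. The summed signal of the list, as log2, went from 12.24 to 12.46 in the XX pair and from 12.15 to 12.34 in the XY pair. Chga had differences of 0.35 and 0.15 and Ddc, which makes dopamine, of 0.22 and at least 0.13, and neither passed. Npy was negative in both pairs (-0.15 and -0.51). Of the 31 genes of this list on the chip, 17 were not fitted, among them Syt1, Scg2 and Isl1, which were under the floor on all 4 arrays. The part of adrenal or nerve tissue in these samples was not tested.

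The remaining genes that rose at least 1.5-fold in both gonads were of several kinds. Foxd1, a forkhead factor of the stroma of the kidney and of the adrenal capsule, stood at 8.08 in WT XX, 8.84 in KO XX, 8.27 in WT XY and 9.40 in KO XY (limma adjusted p = 9.8e-04 with 8 arrays). Cbln1, a secreted protein known from synapses and from Sertoli cells, stood at 8.00, 9.08, 8.91 and 9.81 (limma adjusted p = 0.0021 with 8 arrays). Its KO XX level lay just above its WT XY level. Sfrp2, a secreted antagonist of Wnt proteins, stood at 9.67, 10.34, 9.43 and 10.13, and Adh1, an alcohol dehydrogenase that also oxidises retinol, at 8.43, 9.06, 8.47 and 9.17 (limma adjusted p = 0.0392 and 0.0087 with 8 arrays). Gas5, a host gene of small nucleolar RNAs, stood at 9.61, 10.34, 10.05 and 10.71 on 1 probe set. On a further probe set its differences were 0.15 and 0.21, so its probe sets disagree on the size (limma adjusted p = 0.881 with 8 arrays for the first).

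**Figure D2:**
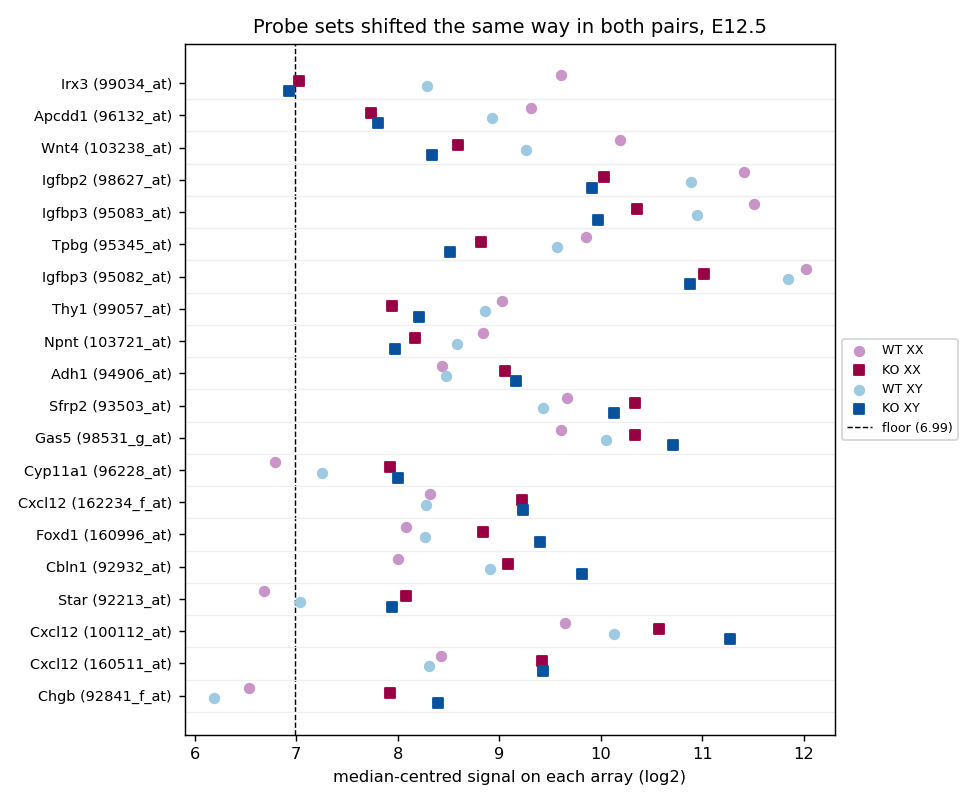
Median-centred log2 signal (horizontal axis) of the 20 probe sets that moved at least 1.5-fold the same way in both pairs, with 1 point for each of the 4 E12.5 arrays and the floor of 6.99 as a dashed line. Squares (KO) lie left of circles (WT) of the same pair for the 9 lower probe sets from Irx3 to Npnt, and right of them for the 11 from Adh1 to Chgb.

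Short of 1.5-fold in a pair, 24 further probe sets passed both fits, and those given here were chosen after their values were seen, except Postn, Hpgd, Vcam1 and Myl7. Lower in KO were Hdc, the enzyme that makes histamine (-1.01, a bound, in the XX pair and -0.48 in the XY pair), Fxyd2, a regulator of the sodium pump (-0.96 and -0.51), Lef1, a TCF/LEF factor (-0.83 and -0.48), and Tbx3, a T-box factor (-0.76, a bound, and -0.50). Stra6, the receptor for vitamin A transport, was at -0.71 and -0.57. Higher were the matrix protein gene Postn (0.55 and 1.02), the prostaglandin-degrading enzyme gene Hpgd (0.58 and 0.88), Lpl, which frees fatty acids from lipoproteins (0.78 and 0.46), the adhesion molecule gene Vcam1 (at least 0.53, and 0.59) and Myl7, a myosin light chain (0.60 and 0.42). A dimmer probe set for Vcam1 gave at least 0.08, and 0.05. Each of these genes had the same sign in both pairs, and their differences were larger in the XX pair for all but Postn, Hpgd and Vcam1. The probe set for Lef1 that stands for it in the lists below gave -0.53 and -0.29 and passed the 4-array fit only (limma adjusted p = 0.25 with 8 arrays). Phlda2 (-1.56 in the XX pair and -0.39 in the XY pair) and Snhg6 (-0.55 and -0.95) also passed that fit only. Their limma adjusted p with 8 arrays was 0.109 and 0.37.

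The pregranulosa list had the largest share of passing genes among the 21 lists. The lists and their members were chosen with earlier results of these same data known, so this rank is not independent support. Of its 12 fitted genes 7 fell and 0 rose, against 1.71% of all genes changed, and in the 8-array fit 3 fell (Irx3, Wnt4 and Igfbp2). Wnt4, the targeted gene, is 1 of the 7. The median difference was -0.61 in the XX pair and -0.14 in the XY pair. Besides the genes above, Msx1, a homeobox factor, stood at 9.83 in WT XX, 8.72 in KO XX, 8.64 in WT XY and 8.26 in KO XY (mean -0.75 ± 0.11; limma adjusted p = 0.0886 with 8 arrays). Its KO XX level was close to the WT XY level. Wnt6, another Wnt ligand, had differences of -0.63 and -0.37 (limma adjusted p = 0.422 with 8 arrays). Axin2, a general read-out of Wnt signalling through beta-catenin, stood at 7.18 in WT XX, 6.78 in KO XX, 7.09 in WT XY and 6.91 in KO XY and did not pass, with both KO arrays under the floor. Rspo1 had no value in the XY pair, since its KO XY cell was lost to a spreadsheet date, and was higher in KO XX (8.30) than in WT XX (7.88).

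Among 30 fitted genes of the Wnt pathway, 1 rose (Sfrp2) and 4 fell (Apcdd1, Wnt6, Lef1 and Tnfrsf19), against 1.71% of all genes called. In the 8-array fit 1 rose and 1 fell (Sfrp2 and Apcdd1). The list medians were -0.08 and -0.02. Tnfrsf19, which encodes a TNF-type receptor, was at -0.87 in the XX pair and at -0.48, a bound, in the XY pair (limma adjusted p = 0.205 with 8 arrays). Among 32 genes of the activin, BMP and TGF-beta family, 3 rose (Inha, Tgfb2 and Lefty1) and 1 fell (Fst) by the 4-array fit, and 0 passed limma with 8 arrays. The pairs disagreed for Lefty1 (0.83 in the XX pair and -0.11 in the XY pair) and for Fst (-1.93, and -0.05, a bound). Inha, the alpha subunit of the inhibins, had 0.75 and 0.31. Tgfb2 had 0.33 and 0.65.

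Markers of other cell types that the samples could hold were set beside these changes. Over all genes, 1.71% were called, 19.4% were positive in both pairs and 20.2% negative in both. Of 16 mesonephros and duct genes, 1 fell (Pax8, a kidney and duct factor, at -0.51 and -0.46; limma adjusted p = 0.198 with 8 arrays) and 0 rose, with 8 negative in both pairs and medians of -0.19 and -0.09. The summed signal of that list, as log2, went from 12.71 to 12.49 in the XX pair and from 12.47 to 12.39 in the XY pair, the same way as Irx3, Igfbp2 and the other genes that fell, and its part in them was not tested. Of 18 Sertoli genes, 2 rose (Cbln1 and Inha) and 1 fell (Vnn1), with medians of 0.09 and -0.03. In the 8-array fit 1 rose (Cbln1) and 0 fell, with limma adjusted p = 0.133 for Inha and 0.354 for Vnn1. Amh, the hormone of Sertoli cells, had differences of 0.01 and -0.15, and Cst9 of at least 0.04, and 0.01.

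Stroma and matrix genes had 4 of 31 that rose (Cxcl12, Postn, Vcam1 and Tnc) and 1 that fell (Igfbp3), with 18 positive in both pairs, against 1.71% called and 19.4% positive in both over all genes. In the 8-array fit 3 rose and 1 fell. Tnc was not among them (limma adjusted p = 0.146), and it met the filter on low values only through the KO arrays. Smooth muscle and myoid genes had 2 of 14 that rose, Acta2 and Myl7, and 10 positive in both pairs, and Acta2 was not called with 8 arrays (limma adjusted p = 0.146). Endothelial genes had 1 of 23 that rose (Vwf, 0.41 and at least 0.47, with another probe set at -0.03 and -0.06; limma adjusted p = 0.122 with 8 arrays), and 21 of 23 were positive in the XY pair against 12 in the XX pair. Over all genes, 3539 of 5834 were positive in the XY pair and 2178 in the XX pair. Of the 12 arterial and Notch genes 1 rose (Cxcl12, also with 8 arrays) and 0 fell.

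Immediate early and stress genes had 1 of 22 that rose (Gadd45a) and 1 that fell (Ier3), 9.09% against 1.71% of all genes called, with 6 at an unadjusted p under 0.05. Neither passed with 8 arrays (limma adjusted p = 0.373 and 0.414). Of the 14 macrophage, 11 coelomic epithelium, 14 erythroid, 29 cell cycle, 21 hypoxia and glycolysis and 2 meiosis genes, 0 passed either way in the 4-array fit or the 8-array fit of limma. Their counts at an unadjusted p under 0.05 in the 4-array fit were 1, 4, 1, 1, 4 and 0 in that order, against 318 of 5834 for all genes. All 21 hypoxia and glycolysis genes were negative in the XX pair and 13 in the XY pair, with medians of -0.16 and -0.06. Over all 5834 genes, 3582 were negative in the XX pair and 2216 in the XY pair, with medians of -0.04 and 0.03. Their largest differences were those of Hk2, a hexokinase, at -0.40 and -0.27.

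**Figure D3:**
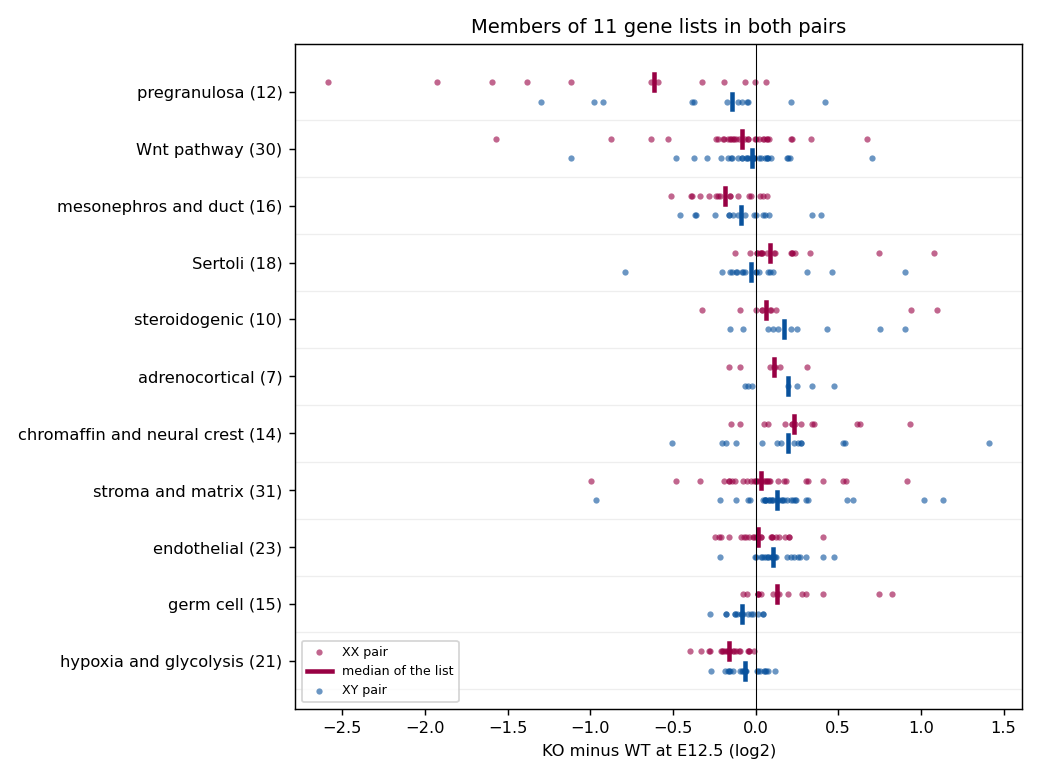
KO minus WT at E12.5 (horizontal axis, log2) for the fitted members of 11 gene lists, with the number of members in parentheses; each point is a gene, red for the XX pair and blue for the XY pair, and vertical bars are medians. The pregranulosa list has its medians at -0.61 and -0.14, and the chromaffin list at 0.23 and 0.19.

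The XX pair on its own asks what the ovary lost that the testis did not. A fold of at least 1.5 in the XX pair with under 1.2-fold in the XY pair was found for 15 probe sets (0.197%), 4 higher (26.7%) and 11 lower. Without centring 37.5% of this class were higher, and 38.5% with quantile normalisation. The converse was found for 7 (0.0922%), of which 14.3% were higher, and 30.8% without centring. Another 29 probe sets passed 1.5-fold in the XX pair and lay between in the XY pair. With 1 array a group these classes carry no test. The test of a difference between the sexes that the design allows takes both stages as repeats, and in it 0 of 7595 probe sets passed (limma on 8 arrays; 902 had an unadjusted p under 0.05). The 15 probe sets had adjusted p from 0.412 to 0.472 there, so that a difference between ovary and testis was not shown for any of them.

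Fst, which encodes the activin antagonist follistatin, had the largest difference of this class. It stood at 9.02 in WT XX, 7.09 in KO XX, 7.04 in WT XY and 6.51 in KO XY. Only the WT ovary was clearly above the floor, and the XY pair straddled it, so little could be measured there. Fst was 3.81-fold lower in the XX pair (limma adjusted p = 0.512 with 8 arrays, over both pairs), and its XY difference was -0.05, a bound. The 8-array fit counts a difference between the pairs as error, so a gene that moved in the XX pair alone can hardly pass it. Without the floor the XY difference was -0.53, and Fst left this class. Kitl, the ligand of the Kit receptor that germ cells carry, stood at 10.40, 9.80, 9.74 and 9.57, far above the floor on every array.

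Dusp9, Hsd17b11 and Frmd6 were of the same class. Dusp9, a phosphatase of MAP kinases, stood at 8.29 in WT XX, 7.23 in KO XX, 7.46 in WT XY and 7.26 in KO XY. Hsd17b11, a steroid dehydrogenase of lipid droplets, stood at 10.03, 9.28, 9.22 and 9.27 and did not pass the 4-array fit (adjusted p = 0.0982 with limma). Frmd6, a protein upstream of Hippo signalling, stood at 8.04, 7.37, 7.34 and 7.30. For Fst, Kitl, Dusp9, Hsd17b11 and Frmd6 the WT ovary stood above the other 3 arrays, which lay closer to each other. This did not hold for all of the class. Pam stood at 9.07 in WT XX, 8.42 in KO XX, 9.08 in WT XY and 8.97 in KO XY, with the KO ovary below the other 3 arrays. Gnai1 stood at 9.17, 8.45, 8.94 and 8.70 in that order, with the KO ovary lowest. The XX difference and the gap between WT gonads share the WT XX array.

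The other named genes lower in the XX pair were Gnai1, an inhibitory G protein subunit (-0.72 in the XX pair and -0.24 in the XY pair), Pam, which amidates peptide hormones (-0.65 and -0.11), Mid1ip1, a regulator of lipid synthesis (-0.60 and -0.20), Itpr2 and Anp32a. Itpr2, a calcium channel of the endoplasmic reticulum, was at -1.05 and -0.18 on 1 probe set, and at -0.17 and -0.16 on another. Anp32a, an inhibitor of protein phosphatases and of histone acetylation, was at -1.20 and 0.20 on 1 probe set, while a brighter one stood at 10.12, 10.13, 10.12 and 10.22 and showed no such fall. A further probe set for Mid1ip1 was at -0.13 and -0.08. For Itpr2, Anp32a and Mid1ip1 another probe set above the floor thus did not show the class. Each other named gene of the class was read from 1 probe set too. Further probe sets for Dusp9, Gnai1 and Lefty1 were under the floor on all 4 arrays.

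Higher in the XX pair were 3 named genes. Plbd1, a phospholipase B-like protein, stood at 7.53 in WT XX, 8.68 in KO XX, 7.26 in WT XY and 7.27 in KO XY, and the KO ovary stood above the other 3 arrays. Lefty1, an inhibitor of Nodal, stood at 7.52, 8.34, 8.13 and 8.02, and Dppa5a, a marker of pluripotent and germ cells, at 9.79, 10.53, 10.47 and 10.45. For these 2 genes the WT ovary stood below the other 3 arrays. Of 15 germ cell genes 2 rose (these 2) and 0 fell, against 1.71% of all genes called, and 0 passed with 8 arrays (limma). Lefty1 and Dppa5a were both negative in the XY pair (-0.11 and -0.02), a disagreement that the 8-array fit counts as error. Over all 5834 genes 2178 were positive in the XX pair and 2216 negative in the XY pair. In the XX pair 13 of the 15 were positive (median 0.13), among them Dppa3 at 0.41 and Nanog at 0.31, and in the XY pair 12 were negative (median -0.08). Pou5f1 was at 0.01 and -0.05, and Dazl at -0.05 and -0.12.

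**Figure D4:**
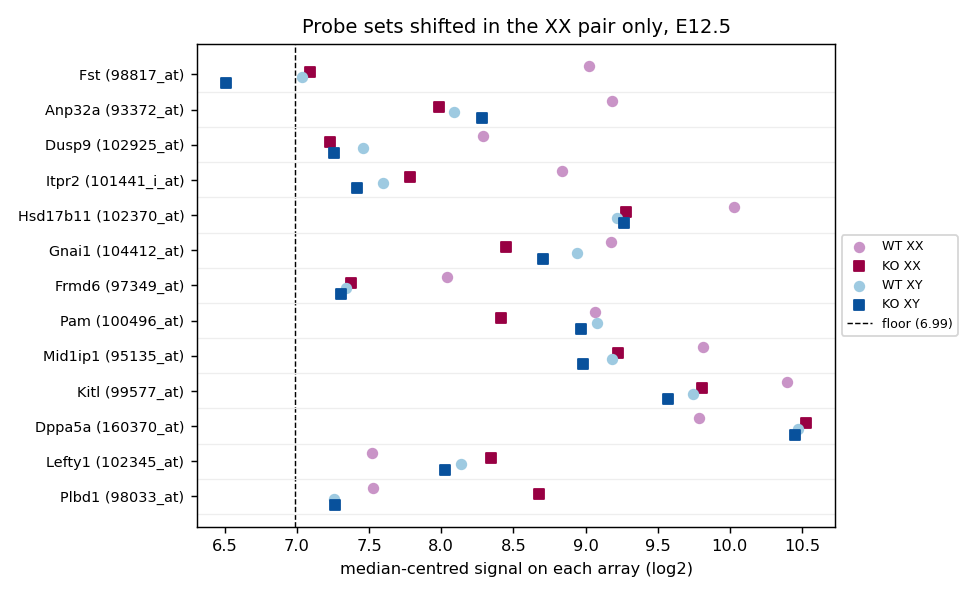
Median-centred log2 signal (horizontal axis) of the 13 named probe sets that moved in the XX pair only, with 1 point for each of the 4 E12.5 arrays and the floor of 6.99 as a dashed line. For Fst and Hsd17b11 the WT XX point lies apart on the right, for Lefty1 and Dppa5a apart on the left, and for Plbd1 the KO XX point lies apart on the right.

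In the XY pair only, 1 probe set was higher and 6 were lower. Crabp2, a carrier of retinoic acid, was higher in KO (8.11 in WT XY and 8.79 in KO XY, against 8.68 and 8.73 on the XX arrays). Vnn1, an enzyme of Sertoli cells that releases pantothenate, was lower (9.20 and 8.41, against 7.96 and 7.83), as was Apoa1, the main protein of high-density lipoprotein (8.03 and 7.34, against 7.74 and 7.62). The other 4 lower probe sets matched several genes each and are not named. None of the 7 passed with 8 arrays, but that fit counts a difference between the pairs as error. Probe sets of a class defined by such a difference can hardly pass it.

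The E14.5 arrays, which the classes did not use, were set beside the E12.5 differences. At E14.5 the XX pair had 100 probe sets past 1.5-fold (1.32%) and the XY pair 40 (0.527%). The 9 probe sets lower in both KO gonads at E12.5 were all negative in the XX pair at E14.5 (median -0.62), against 57.7% of all probe sets. In the XY pair 8 of the 9 were positive (median 0.49), against 46.9%, and Wnt4 was the exception at -0.23. Irx3 was at -1.0 in the XX pair of E14.5 and at least 0.78 in the XY pair, and Igfbp2 was at -0.72 and 0.49. The 11 probe sets lower in the XX pair only were also all negative in the XX pair at E14.5 (median -0.43), with Fst at -0.83 and Kitl at -0.75. In the XY pair 6 of them were positive, 1 negative and 4 had both arrays under the floor. These XX differences rest on the WT female array with Eif2s3y signal.

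The 11 probe sets higher in both KO gonads at E12.5 did not keep a common direction. In the XX pair at E14.5, 5 were positive, 4 negative and 2 at the floor on both arrays, and in the XY pair 2 were positive and 7 negative. Star was at -0.58 and -0.49, Cyp11a1 at -1.55 and -0.72 and Adh1 at -0.67 and -0.57 in the XX and XY pairs of E14.5. Foxd1 and Chgb were under the floor on all 4 arrays of that stage. The test of the KO effect at E12.5 against that at E14.5 (limma on all 8 arrays) was passed by 15 of 7595 probe sets (0.197%), 319 having an unadjusted p under 0.05. A positive difference was found in 73.3% of the 15, in 50% of those called without centring and in 83.3% with quantile normalisation. Without the WT female E14.5 array 143 passed, of which 35% were positive, so that the majority turned, and without the E14.5 male pair 87, of which 63.2% were positive. The 15 of the fit on all 8 arrays included 6 of these 11 (Adh1, Cbln1, Chgb, Cyp11a1, Foxd1 and Star) and 1 of the 9 lower ones (a probe set for Igfbp3). These counts turn on the E14.5 arrays: without the WT female array 10 of the 11 and 9 of the 9 passed, and without the male pair 7 of the 11 and 3 of the 9, in fits chosen after seeing the data. For Star the difference between the stages was 1.54 (adjusted p = 4.2e-04 with limma), and 1.49 without the WT female E14.5 array or 1.58 without the E14.5 male pair.

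**Figure D5:**
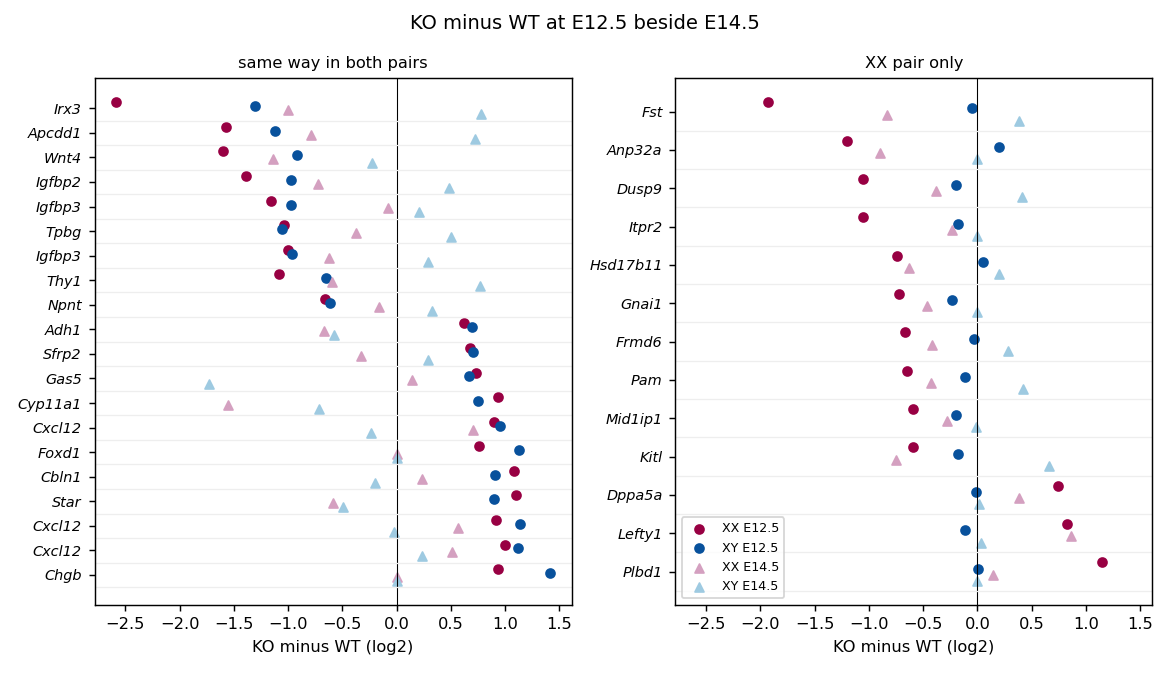
KO minus WT (horizontal axis, log2) in each pair at E12.5 (circles) and E14.5 (triangles) for the 20 probe sets that moved the same way in both pairs (left panel) and the 13 named ones of the XX pair only (right panel). Light red triangles (XX, E14.5) lie left of 0 for all 9 lower probe sets of the left panel, while light blue ones (XY, E14.5) lie right of 0 for 8 of them; Star, Cyp11a1 and Adh1 have both triangles left of 0.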

How the data were processed

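Expression was measured on 8 Affymetrix MG_U74Av2 arrays, of which the 4 of E12.5 were compared. The deposited values are log2 signals per probe set, made with MAS5 per the submitters' processing notes. No source used here gives its version, scaling target or background step. In the KO male E12.5 column 14 cells held spreadsheet dates (41278 to 41284). They were set to missing, and their probe sets were left out of the fits.

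Each array was centred on the mean of the 8 array medians (deposited medians at E12.5, 7.69 to 7.85). The floor is the 40th percentile of all values, 6.99, and 66 control probe sets were left out. By the chip annotation 10833 probe sets have 1 gene (10817 of these in RefSeq), 396 have several and 1193 have no gene. In lists a gene was read from its brightest probe set at E12.5. The lists (21, with 543 genes) hold genes that other lists hold too.

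limma 3.58.1 in R 4.3.3 was used with lmFit and eBayes with an intensity trend. The 4-array fit had gonad type and genotype (1 residual degree of freedom, infinite prior). The 8-array fits had blocks for sex by stage, and genotype within stage (2 residual, 10.5 prior) or within sex (2 residual, 3.55 prior). Adjustment was by Benjamini-Hochberg over 7595 probe sets, two-sided. The fits were tested on simulated data.

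Named genes are Wnt4, the sex-check genes, up to 12 passing genes in each direction, up to 12 per direction of the shared and XX-only classes and 6 of the XY-only class, and up to 4 per list. Other list members and genes given with values (among them Hdc, Fxyd2, Lef1, Tbx3, Stra6, Lpl, Axin2, Amh, Cyp17a1, Nr5a1, Chga, Ddc, Nanog, Pou5f1, Dazl and Igfbp4) were chosen after their values were seen. Members, lists and tests were chosen with earlier results of these data known. Alternatives covered centring, floor, filter, variance model, samples in the fit and class limits.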

Additional observations from a re-analysis of the deposited data

Results flagged for a closer look

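Opposite signs in the pairs were found for 4 genes of the XX-only class, with 1 array a group and no test of the difference at E12.5. Anp32a was at -1.20 in the XX pair and 0.20 in the XY pair, Hsd17b11 at -0.75 and 0.05, Lefty1 at 0.83 and -0.11, and Dppa5a at 0.74 and -0.02. All 4 XY values lie between the 5th and 95th percentiles of that pair.

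Between the stages, the KO effect at E12.5 minus that at E14.5 passed limma on 8 arrays for 7 named genes. It was 1.98 for Cyp11a1, 1.54 for Star, 1.28 for Adh1, 1.18 for Chgb, 0.97 for Cbln1, 0.95 for Foxd1 and -1.13 for the dimmer Igfbp3 probe set, at adjusted p from 4.2e-04 to 0.0407. For Chgb and Foxd1 the E14.5 arrays were all under the floor, so that their E14.5 differences are 0 by construction.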

How the results depend on the processing

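The count of probe sets that passed over both gonad types (129) depended on the variance model more than on scaling. It lay between 99 and 182 under other scalings, floors, the stricter filter, no trend and robust moderation. It was 42 with all 8 arrays. In alternatives added after seeing the data it was 7 with all 8 arrays and the filter on 8 arrays, and 0 without moderation (250 at an unadjusted p under 0.05). It was 0 with no filter on low values (296 at an unadjusted p under 0.05; the cause was not tested). Risers made up 40.3% of the calls, and 57.1% with all 8 arrays.

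Of the shared probe sets, 20 at 1.5-fold, 4 reached 2-fold in both pairs (16 to 27 under the other settings). Of the XX-only class, 15, there were 25 with a lower floor and 5 with 2-fold classes, and of the XY-only class, 7, there were 13 without centring and 0 with 2-fold classes. Without the floor, 1 of the 15 (Fst) changed class. The count of stage differences, 15, was 4 without centring, 6 with quantile normalisation, 35 with a lower floor, 57 without the floor, 44 with the stricter filter, 0 without the filter (351 at an unadjusted p under 0.05), 143 without the WT female E14.5 array and 87 without the E14.5 male pair. Between the sexes it was 0 under all settings run, with 382 to 1049 at an unadjusted p under 0.05. None of the named probe sets reversed under the 11 alternatives run on them where they could be fitted, and the other called probe sets were not followed one by one. Groups hold 1 array, and no labels pair replicates. KO and WT were compared within each pair, with gonad type, or blocks for sex by stage, as a term of the fit.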
